A study of Mus musculus with 10 samples.

Results

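The genes described are 9 that serve the fusion of synaptic vesicles: the SNARE proteins Vamp1, Vamp2, Snap25 and Stx1a, the complexins Cplx1 and Cplx2, the disassembly factors Nsf and Napb, and the vesicle protein Syp (synaptophysin). The tissue was cerebral cortex, taken from male p97FE65 null mice and wild type mice of the same litters. Members were all probe sets that the array's annotation gives to these genes. There were 21 such probe sets, 20 of them with 1 gene and 1 (1453647_at) that Vamp1 shares with another gene, out of 22626 probe sets tested, which cover 12393 genes. Of the 20, 18 had a mean of at least 5 on the log2 scale over the 10 arrays, and 2, the only probe set of Cplx2 and 1 of the 2 of Syp, were dimmer.

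Expression was measured on Affymetrix MOE430A 2.0 arrays, which read a gene through 1 or more sets of short oligonucleotides called probe sets. The 5 p97FE65 null and 5 wild type arrays carried cortex RNA of 1 mouse of 6 months each. The null mice lack the full-length form of FE65 (gene symbol Apbb1), an adaptor protein that binds the amyloid precursor protein. The null allele was made in R1 embryonic stem cells, which are of another strain than C57Bl/6J, and had been crossed to C57Bl/6J for 10 generations. DNA of the stem cell strain beside FE65 can therefore still differ between the groups. Apbb1 lies on chromosome 7, and 0 of the 9 genes lie on that chromosome. The comparison was made to find transcripts that depend on full-length FE65. By itself it cannot tell such dependence from an effect of stem cell DNA retained beside FE65. Values are the log2 expression values that GC-RMA gave, a method that adjusts each probe for background by its GC content and normalizes the arrays to each other. A difference of 1 on this scale is a 2-fold difference.

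At a synapse, a SNARE protein on the vesicle winds together with SNARE proteins on the cell membrane, and this pulls the membranes into contact until they fuse. Complexins bind the assembled bundle and help hold it ready for the calcium signal, and Nsf with its SNAP adaptors takes the bundle apart afterwards so that its parts can be used again. In the cortex Vamp2 is the main vesicle SNARE of most nerve endings, while Vamp1 is found more in subsets of neurons, fast-spiking inhibitory cells among them.

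The groups are named by the labels of the arrays, because differences taken by these labels ran opposite to those in the study's tables. The arrays alone do not settle which genotype stood behind each label. All differences are labelled null minus labelled wild type, and each would turn if the labels were exchanged. Of 15 genes checked for direction, 14 ran the opposite way, and Lgals7, with a difference of -0.0037, did not. Neither of the 2 Apbb1 probe sets reads the deleted exon, and their level cannot by itself show the deletion. Probe set 1423892_at lay between 10.80 and 11.37 on the null arrays and between 10.85 and 11.13 on the wild type arrays, and 1423893_x_at lay between 11.30 and 11.51 on the null arrays and between 10.98 and 11.23 on the wild type arrays. Their differences were 0.11 and 0.26, both upward by the labels. The study gives the other direction for both. Array medians ran from 3.01 to 3.14, and correlations between arrays from 0.994 to 0.999. The 3' minus 5' signal of the Gapdh controls, a measure of RNA quality, lay between -0.07 and 0.12 on the null arrays and between -0.04 and 0.27 on the wild type arrays (exact permutation p = 0.325, two-sided).

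The data gave small differences with a lean to lower values in the null arrays. Of the 20 probe sets, 14 had a lower and 6 a higher mean in the null arrays, and the median difference was -0.09, against -0.00036 over all 22626 probe sets. Bright probe sets leaned the same way as a whole: among the 7827 with a mean of at least 5 the median difference was -0.05 and 65.5% were lower in the null arrays, against 50.2% of all probe sets. This lean of bright probe sets was gone after quantile normalization, where their median was 0.01. That method gives all arrays the same distribution of values, so it takes out a shared lean whatever made it. What made the lean was not tested.

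None of the 20 passed an adjusted p of 0.05 in limma with Benjamini-Hochberg adjustment over all probe sets, and the same held for the whole array (0% of 22626, also by the methods' t-test). At an unadjusted p under 0.05 from limma, 5 of the 20 (25%) were lower and 0 were higher in the null arrays, against 2.43% lower and 1.24% higher of all probe sets. They belonged to 4 of the 9 genes (44.4%): Vamp1, Vamp2, Stx1a and Napb, against 3.78% of all genes with a probe set so called. All 5 were among the 18 bright probe sets, for which the background is 5.3%. Counted by the brightest probe set alone, 3 of 9 genes (33.3%) were lower and 0 higher, against 2.61% lower and 1.33% higher of all genes. In 3 of the 20 (15%) every null array lay below every wild type array, against 0.331% of all probe sets and 0.588% of bright ones. After quantile normalization 420 probe sets of the array were lower and 524 higher, against 549 lower and 281 higher as deposited, while 3 of the 9 genes had a probe set lower and 0 had one higher. Since the genes were chosen with results of these data known, these shares describe the genes and no test goes with them.

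**Figure D1:**
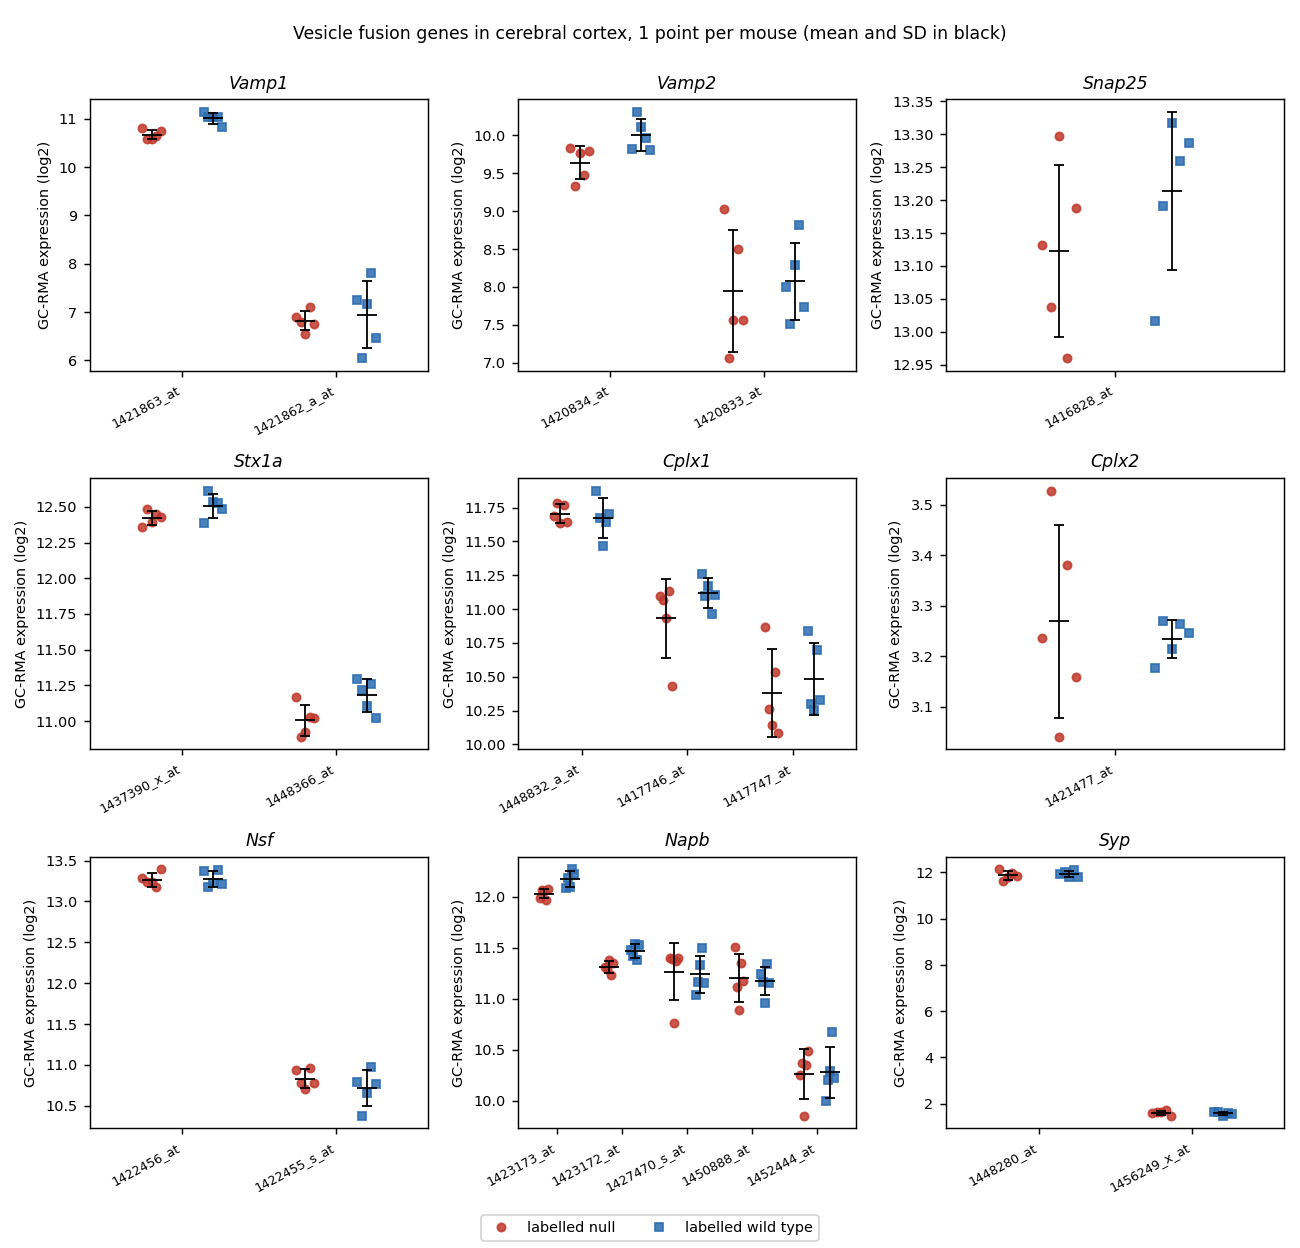
Log2 GC-RMA expression (vertical axes, each panel with its own range that does not start at 0) of every probe set of the 9 genes (horizontal axes), with 1 point per mouse, labelled null in red circles left of labelled wild type in blue squares, and the mean and SD in black. The groups do not overlap for Vamp1 1421863_at, Napb 1423173_at and Napb 1423172_at, and they overlap for the other 17 probe sets.

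Vamp1, a SNARE of the vesicle membrane, gave the smallest p of these genes. Its brighter probe set, 1421863_at, read 10.80, 10.58, 10.59, 10.65 and 10.75 on the null arrays, against 11.14, 11.03, 11.04, 11.03 and 10.83 on the wild type arrays. Every null array lay below every wild type array, with the highest null array close to the lowest wild type one. The mean was 10.67 ± 0.10 in null and 11.01 ± 0.11 in wild type (SD, n = 5 each), a difference of -0.34 (SE 0.07) or 1.27-fold lower. The limma p was 0.000405, rank 8 of all 22626 probe sets, with an adjusted p of 0.975. The exact permutation test gave p = 0.00794 (two-sided), the smallest p that 5 against 5 arrays allow, and 1 after adjustment over all probe sets. The dimmer Vamp1 probe set, 1421862_a_at, read 6.55 to 7.10 on the null arrays and 6.04 to 7.80 on the wild type arrays. Those groups overlapped over the whole null range, and the difference was -0.13 (95% interval -0.76 to 0.50). The shared probe set 1453647_at was dim, at 1.43 to 1.60 on the null arrays and 1.48 to 1.66 on the wild type arrays.

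Vamp2, the other vesicle SNARE of the 9 genes, had the largest difference by size among the 20. Probe set 1420834_at read 9.83, 9.34, 9.76, 9.48 and 9.80 on the null arrays, against 9.83, 10.31, 10.10, 9.96 and 9.81 on the wild type arrays. The groups touched: null replicate 1 lay above wild type replicates 1 and 5. The mean was 9.64 ± 0.22 in null and 10.003 ± 0.21 in wild type (SD, n = 5 each), a difference of -0.36 (SE 0.12) or 1.28-fold lower, with a limma p of 0.0143 and an exact permutation p of 0.0238. Its other probe set, 1420833_at, spread from 7.06 to 9.03 on the null arrays and from 7.51 to 8.82 on the wild type arrays. With that spread the difference of -0.13 had an interval from -0.95 to 0.70, which holds the difference of the first probe set as well as 0.

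Within each mouse the brighter probe sets of Vamp1 and Vamp2 were set against each other, to see whether these vesicle SNAREs differed unequally. Vamp1 minus Vamp2 was 0.97, 1.24, 0.82, 1.17 and 0.95 on the null arrays and 1.32, 0.72, 0.93, 1.07 and 1.02 on the wild type arrays. The null values lay inside the wild type range. The difference between groups was 0.02 (95% interval -0.27 to 0.31, exact permutation p = 0.889, over 2 such gene pairs compared), so no unequal difference was detectable with 5 arrays a group, and one of up to about 0.3 is inside the interval.

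The SNAREs of the cell membrane were Snap25 and Stx1a. Snap25, which gives the bundle 2 of its helices, read 13.13, 13.04, 13.30, 12.96 and 13.19 on the null arrays, against 13.02, 13.19, 13.32, 13.26 and 13.29 on the wild type arrays (1416828_at). Wild type replicate 1 lay below 4 of the null arrays, and the ranges overlapped almost fully. The difference was -0.09 (95% interval -0.26 to 0.08, exact permutation p = 0.278).

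Stx1a (syntaxin 1A), the membrane anchor of the bundle, was read by 2 probe sets. Probe set 1448366_at read 11.17, 10.89, 10.92, 11.03 and 11.02 on the null arrays, against 11.30, 11.22, 11.11, 11.26 and 11.02 on the wild type arrays. Null replicates 1, 4 and 5 lay inside the wild type range, and wild type replicates 3 and 5 lay inside the null range. The mean was 11.01 ± 0.11 in null and 11.18 ± 0.11 in wild type (SD, n = 5 each), a difference of -0.17 (SE 0.07), with a limma p of 0.0293 and an exact permutation p of 0.0556. The call was lost under 8 of 18 other ways of processing the arrays, with p up to 0.0918. The other probe set, 1437390_x_at, whose suffix marks probes that can bind other transcripts too, read 12.36 to 12.49 on the null arrays and 12.39 to 12.61 on the wild type arrays, and differed by -0.08 (95% interval -0.19 to 0.02).

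Napb, the brain form of the SNAP adaptor that brings Nsf to the bundle, was read by 5 probe sets, of which 2 were lower at an unadjusted p under 0.05. Probe set 1423173_at read 11.99, 12.07, 12.05, 11.97 and 12.08 on the null arrays, against 12.09, 12.19, 12.10, 12.27 and 12.22 on the wild type arrays. Probe set 1423172_at read 11.31, 11.29, 11.38, 11.24 and 11.36 on the null arrays, against 11.48, 11.42, 11.54, 11.39 and 11.53 on the wild type arrays. In both, every null array lay below every wild type array, though the nearest arrays of the groups almost touched. The difference was -0.14 (SE 0.05, limma p = 0.0135) for 1423173_at and -0.16 (SE 0.05, limma p = 0.0060) for 1423172_at, each with an exact permutation p of 0.00794, and folds of 1.10 and 1.12.

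The other 3 Napb probe sets did not pass. Probe set 1427470_s_at read 11.41, 11.39, 10.77, 11.37 and 11.41 on the null arrays and 11.04, 11.16, 11.33, 11.50 and 11.16 on the wild type arrays, and null replicate 3 stood far below the other null arrays. The differences were 0.03 (95% interval -0.27 to 0.32) for 1427470_s_at, 0.04 (-0.21 to 0.28) for 1450888_at and -0.02 (-0.33 to 0.29) for 1452444_at. These intervals hold the differences of the first pair. To see whether the probe sets of a gene differed unequally, each further probe set was set against the brightest one of its gene within each mouse. For Napb the largest such difference, 1450888_at minus 1423173_at, was 0.18 (95% interval -0.10 to 0.45, exact permutation p = 0.238).

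Over all 9 genes there were 11 such differences within a gene, and all 11 overlapped between the groups. By limma 0 of the 11 had an unadjusted p under 0.05, against 3.33% of the 7987 such differences on the array, of which 0% passed the adjusted threshold. The smallest exact permutation p among them was that of Cplx1, below. Leaving out null replicate 3 brought 2 of the 11 under 0.05, and leaving out null replicate 1 brought 1.

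**Figure D2:**
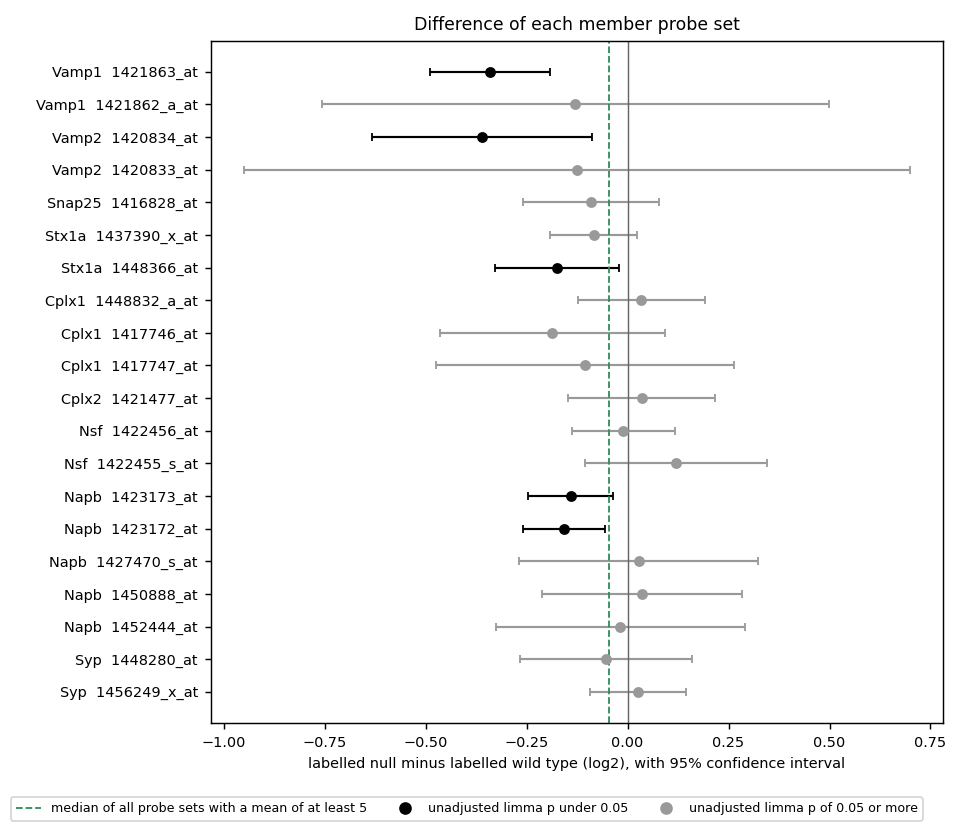
Labelled null minus labelled wild type (horizontal axis, log2) for each of the 20 probe sets with 1 gene, with its 95% confidence interval from limma. The 5 in black, of Vamp1, Vamp2, Stx1a and Napb, had an unadjusted p under 0.05 and lie left of 0, between -0.36 and -0.14, and the dashed line marks the median of -0.05 over bright probe sets.

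The promoters of Vamp1, Stx1a and Napb are printed because each of these genes had a probe set lower in the null arrays at an unadjusted limma p under 0.05. Their other probe sets did not all share that difference. Each is the RefSeq stretch from 250 bases before to 50 bases after the start of the gene in build GRCm38.p6, at chr6:125215331-125215630 on the plus strand for Vamp1, chr5:135023232-135023531 on the plus strand for Stx1a and chr2:148732371-148732670 on the minus strand for Napb. Capitals mark matches, on either strand, to the GC box GGGCGG or to the letters TGACG, the core of the cyclic AMP response element.
Vamp1: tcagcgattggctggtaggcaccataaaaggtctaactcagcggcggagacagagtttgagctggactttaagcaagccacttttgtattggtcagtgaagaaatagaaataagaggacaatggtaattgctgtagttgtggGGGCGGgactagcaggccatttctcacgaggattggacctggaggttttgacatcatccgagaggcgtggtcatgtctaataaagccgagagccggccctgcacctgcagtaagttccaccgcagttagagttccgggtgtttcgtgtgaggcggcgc
Stx1a: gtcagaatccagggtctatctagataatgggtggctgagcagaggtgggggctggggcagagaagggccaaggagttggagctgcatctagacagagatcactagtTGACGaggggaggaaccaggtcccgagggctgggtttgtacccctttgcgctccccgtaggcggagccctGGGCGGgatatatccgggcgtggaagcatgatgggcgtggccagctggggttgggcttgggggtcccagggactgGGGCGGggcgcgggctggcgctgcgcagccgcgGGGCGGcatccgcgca
Napb: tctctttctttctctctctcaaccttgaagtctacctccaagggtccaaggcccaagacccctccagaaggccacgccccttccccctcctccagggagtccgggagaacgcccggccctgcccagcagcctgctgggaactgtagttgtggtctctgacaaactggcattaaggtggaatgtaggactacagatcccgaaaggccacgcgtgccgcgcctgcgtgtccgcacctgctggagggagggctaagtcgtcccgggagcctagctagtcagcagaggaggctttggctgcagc
Vamp1 held 1 GC box, Stx1a held 3 GC boxes and 1 match to TGACG, and Napb held no match to these letters. None of the matches overlapped another, and the TATA box letters TATAAA were in none of the 3. Of all 32851 promoters of this length, 35.7% held GGGCGG, 20.8% held TGACG and 13.6% held TATAAA. The matches describe these letters only. Promoters were matched by symbol for 7 of the 9 genes, and Vamp2 and Snap25 had no entry.

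The complexins gave no difference past the test. Cplx1, the complexin of many inhibitory and some excitatory neurons, was read by 3 probe sets. The brightest, 1448832_a_at, read 11.69, 11.79, 11.64, 11.77 and 11.64 on the null arrays, against 11.87, 11.67, 11.46, 11.64 and 11.70 on the wild type arrays. The null values lay inside the wild type range, and the difference was 0.03 (95% interval -0.12 to 0.19). Probe sets 1417746_at and 1417747_at differed by -0.19 (-0.47 to 0.09) and -0.11 (-0.48 to 0.26). In the first of these, null replicate 5 read 10.43 while the other null arrays read at least 10.93. Within the mice, 1417746_at minus 1448832_a_at differed by -0.22 (95% interval -0.49 to 0.05, exact permutation p = 0.0714), and the adjusted limma p over all within-gene differences was 0.974.

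Cplx2, the complexin most used by excitatory neurons of the forebrain, had 1 probe set, 1421477_at, which was dim. It read 3.24, 3.53, 3.04, 3.38 and 3.16 on the null arrays and 3.18, 3.27, 3.21, 3.26 and 3.25 on the wild type arrays, close to the array medians. The null arrays spread around the wild type ones, with a difference of 0.03 (95% interval -0.15 to 0.22). Cplx1 minus Cplx2 within each mouse differed by -0.0011 (95% interval -0.21 to 0.21, exact permutation p = 0.984), which says nothing of Cplx2 relative to Cplx1 because Cplx2 was so dim.

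Nsf, the ATPase that takes the bundle apart, had 2 probe sets with overlapping groups. Probe set 1422456_at read 13.28, 13.23, 13.23, 13.18 and 13.39 on the null arrays and 13.37, 13.18, 13.23, 13.38 and 13.22 on the wild type arrays. The difference was -0.01 (95% interval -0.14 to 0.12). Probe set 1422455_s_at had the largest difference upward of the 20, at 0.12 (-0.11 to 0.34, exact permutation p = 0.341).

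Syp, a vesicle membrane protein that binds Vamp2, read 12.12, 11.61, 11.80, 11.96 and 11.86 on the null arrays, against 11.92, 12.02, 11.79, 12.09 and 11.80 on the wild type arrays (1448280_at). The null arrays held both the highest and the lowest value, and the difference was -0.05 (95% interval -0.27 to 0.16). Its other probe set, 1456249_x_at, was dim, at 1.47 to 1.71 on the null arrays and 1.48 to 1.65 on the wild type arrays.

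The differences were then recomputed in 18 other ways, 10 of which left out 1 array each. Vamp1 1421863_at stayed between -0.39 and -0.29 with a p of at most 0.00162, and Vamp2 1420834_at stayed between -0.41 and -0.28 with a p of at most 0.0446. Napb 1423173_at was under 0.05 in 17 of the 18 and reached 0.0590 when dim probe sets were left out. Napb 1423172_at was under 0.05 in 17 and reached 0.0504 after quantile normalization. Quantile normalization also brought the number of probe sets without overlap to 0, against 3 as deposited. The lowest adjusted limma p of any of the 20 in the 18 was 0.469.

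**Figure D3:**
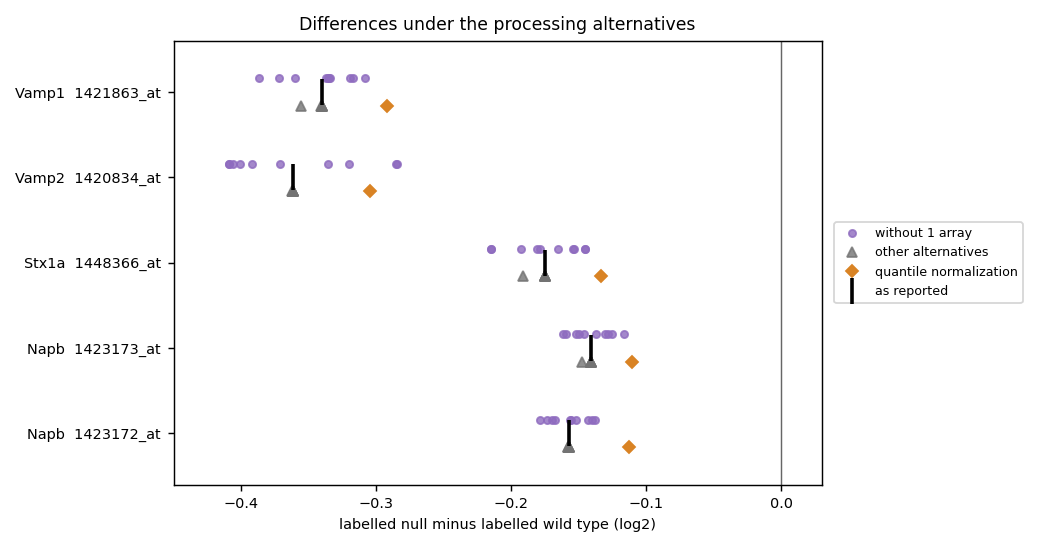
Labelled null minus labelled wild type (horizontal axis, log2) of the 5 probe sets with an unadjusted p under 0.05, as reported (black bar) and under each alternative (circles, 1 array left out; diamond, quantile normalization; triangles, the rest). All points lie left of 0, and quantile normalization gave differences nearer to 0 than reported for all 5.

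The rest of the fusion machinery was read through 4 gene lists, each gene by its brightest probe set. Syt1, Syt2 and Slc32a1 in these lists are also markers in the lists of neuron types. For comparison, 2.61% of all genes by brightest probe set were lower and 1.33% higher. Of 25 other SNARE proteins, 0 were lower and 1 was higher at an unadjusted p under 0.05, with a median of -0.01. The 1 was Stx8, a SNARE of endosomes, with a difference of 0.24 at a dim level (exact permutation p = 0.0317). Of 19 SNARE regulators, 0 were lower and 0 higher, with a median of -0.04. The 4 with the smallest limma p were Rab3a, a vesicle GTPase (-0.14), Rims2, an organiser of release sites (-0.48), Rph3a, a Rab3 effector (-0.27), and Syt2, a calcium sensor (-0.26). Their exact permutation p-values ran from 0.0952 for Rab3a to 0.333 for Syt2.

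Of 14 other synaptic vesicle proteins, 4 (28.6%) were lower and 0 higher, against 2.61% lower and 1.33% higher of all genes by brightest probe set and 5.3% lower of bright probe sets, with a median of -0.13, and all 4 overlapped between the groups. Svop, a transporter-like protein of vesicles, differed by -0.31 (SE 0.12, exact permutation p = 0.0476). Dnajc5, a chaperone that keeps Snap25 folded, differed by -0.14 (SE 0.05, exact permutation p = 0.0317). Syn2, a synapsin that ties vesicles together, differed by -0.20 (SE 0.08, exact permutation p = 0.0476), and Sv2a, a vesicle glycoprotein, by -0.21 (SE 0.09, exact permutation p = 0.0635). None of these passed after adjustment (limma adjusted p of 0.999 each).

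Of 7 active zone proteins, 0 were lower and 0 higher, with a median of -0.04. The 4 with the smallest limma p were the scaffold Erc1 (0.10), the giant scaffold Pclo (-0.11), the adaptor Cask (0.16) and the liprin Ppfia4 (-0.21), with exact permutation p-values from 0.151 for Erc1 to 0.357 for Ppfia4. Over the 4 lists together, 4 of 65 genes (6.15%) were lower and 1 higher, with a median of -0.05. The share of 6.15% compares with 2.61% of all genes by brightest probe set and 5.3% of bright probe sets, and the median equals the -0.05 of bright probe sets. Leaving out 1 array moved the count of 4 to 9 (null replicate 5) or to 0 (wild type replicate 4). It was 2 without null replicate 1 or 2 and 1 without null replicate 3, and it was also 2 after quantile normalization.

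**Figure D4:**
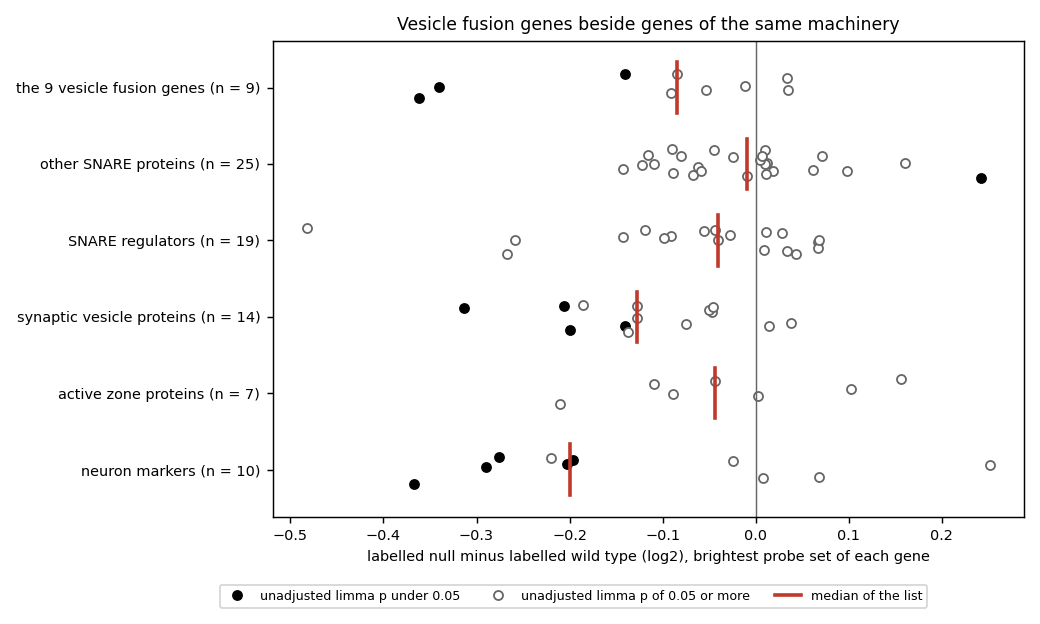
Labelled null minus labelled wild type (horizontal axis, log2) of each gene by its brightest probe set, for the 9 genes, the 4 lists of related genes and the neuron markers, with filled points for an unadjusted limma p under 0.05 and a red bar at each median. The medians run from -0.20 for neuron markers to -0.01 for other SNARE proteins, and the 9 genes lie at -0.08.

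Some markers of neurons were lower too. Of 10 neuron markers, 5 were lower and 0 higher at an unadjusted p under 0.05, against 2.61% lower and 1.33% higher of all genes by brightest probe set, with a median of -0.20, and their mean lay between 9.80 and 10.11 on the null arrays and between 9.95 and 10.22 on the wild type arrays. Eno2, a glycolytic enzyme of neurons, differed by -0.29 and Rbfox3, the nuclear antigen NeuN, by -0.37, each with an exact permutation p of 0.0238. The Rbfox3 probe set was dim, with a mean of 4.16 over all arrays. The other 5 did not pass, and 3 of the 10 had a higher mean in the null arrays: Map2, a protein of dendrites (0.25), Syt1, the calcium sensor of fast release (0.07), and Stmn2, a protein of growing neurites (0.0078), named after their values were seen. In whole tissue, fewer cells of a type and less RNA per cell cannot be told apart, and the part of neuron content in the values of the 9 genes was not tested.

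Of 8 fast-spiking interneuron markers, 1 (12.5%) was lower and 0 higher (median -0.12). Their mean lay between 7.57 and 7.72 on the null arrays and between 7.72 and 7.92 on the wild type arrays. The neurofilament gene Nefh was the 1 lower (-0.43, limma adjusted p = 0.822), and every null array lay below every wild type array. The neurofilament genes Nefl (-0.20) and Nefm (-0.28), of the neuron list, were also lower at an unadjusted limma p under 0.05. Pvalb (-0.15), Kcnc1 (-0.11) and Gad1 (-0.11) did not pass, and 1 of the 8, Gad2, had a higher mean in the null arrays (0.07). Of 9 oligodendrocyte markers, 3 (33.3%) were lower (median -0.18), and for Mbp, a myelin protein, the difference was -0.23 with every null array below every wild type array. Their mean ran from 8.57 to 9.07 on the null arrays and from 8.84 to 9.33 on the wild type arrays. The 9 vesicle fusion genes by brightest probe set had the same share lower, 33.3%, with a median of -0.08. Of all genes by brightest probe set, 2.61% were lower and 1.33% higher. Every null array lay below every wild type array in 0.331% of all probe sets and 0.588% of bright ones.

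Of 8 astrocyte markers, 1 (12.5%) was lower, against 2.61% of all genes by brightest probe set. It was S100b (-0.25, exact permutation p = 0.0714). The median of the list was -0.01, and 4 of the 8 had a higher mean in the null arrays, Gfap (0.11) and Aqp4 (0.16) among them. Of 9 microglia, 6 endothelial, 4 striatum, 3 choroid plexus and 2 red blood cell genes, 0 were lower and 0 higher. The 2 red blood cell genes averaged 1.93 to 1.97 on the null arrays and 1.90 to 2.11 on the wild type arrays, and the choroid plexus genes 3.11 to 3.73 on the null arrays and 3.09 to 4.02 on the wild type arrays. The 2 red blood cell genes, Hba-a1 and Alas2, thus lay below the array medians. Hbb-b1, also listed, was not measured, so blood content cannot be judged from these 2. Ttr, the most abundant choroid plexus gene, averaged 6.29 over all arrays. What part the myelin and interneuron genes had in the values of the 9 genes was not tested.

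How the 9 genes varied from mouse to mouse depended on the probe sets read. After the group means were taken away, the 36 pairs of brightest probe sets had Pearson correlations over the 10 arrays from -0.81 for Snap25 with Cplx1 to 0.59 for Vamp1 with Syp. Only 4 pairs were above 0.5, 5 were below -0.5, and 27 lay between. Vamp1 and Vamp2 had a correlation of 0.42. Some pairs of other probe sets had higher values, such as 0.88 for Vamp1 1421863_at with Stx1a 1448366_at, 0.85 for Stx1a 1448366_at with Syp 1448280_at and 0.82 for Cplx1 1417747_at with Napb 1450888_at, whereas the brightest probe sets of Vamp1 and Stx1a had -0.35. Probe sets of the same gene did not all vary together. Napb 1423173_at and 1423172_at, both lower in the null arrays, had -0.13, and Stx1a 1437390_x_at and 1448366_at had -0.35. Napb 1423172_at had -0.65 with Napb 1450888_at, while Napb 1427470_s_at had 0.92 with Napb 1452444_at. All points of a pair share their array and its normalization, so these values describe the 10 arrays.

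The genes whose deviations were most like the mean deviation of the 9 were sought among 7136 bright probe sets. They were Bag4 (r = 0.94 over 10 arrays), Ergic3 (0.94), Maged1 (0.92), Rad23b (0.91) and Mprip (0.91). Their own differences ran from -0.16 for Bag4 to -0.04 for Mprip. With so many searched over 10 arrays, high values are common, and these are given as a description.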

How the data were processed

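Cerebral cortex RNA was reverse transcribed, labelled with biotin and hybridised to 1 array per mouse. The authors deposited log2 expression values made with GC-RMA, with no version stated. GC-RMA normalizes between arrays, so a shift of all probe sets would largely be removed. The deposited values of bright probe sets still leaned lower in the null arrays, with a median difference of -0.05. Arrays were grouped by their labels, and the genotype direction is limited as stated with the first differences. Replicate numbers are shared between groups, and the study's mice were littermate pairs, but which arrays form a pair was not given, so the fit had no block.

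After removal of 64 control probe sets, 22626 were fitted with limma 3.58.1 in R 4.3.3 (lmFit, eBayes), with Benjamini-Hochberg adjustment. Platform annotation gave 1 gene for 20380, several for 691 and none for 1555, and 20351 of the first matched the RefSeq table of GRCm38.p6. Single probe sets had exact permutation tests over 252 splits. A bright probe set had a mean of at least 5. The number of arrays limits precision. The fit was tested on simulated data. The genes and lists were chosen with earlier results of these data known. Named genes were all probe sets of the 9 genes, up to 4 of each pathway list and 2 of each marker list with the smallest p, the 5 most alike, and Apbb1. Alternatives were a replicate block, median centring, quantile normalization, a filter or floor on dim values, a trend with robust prior, array weights, the methods' t-test and leaving out each array.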

Additional observations from a re-analysis of the deposited data

Results flagged for a closer look

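Of 42 groups of 5 arrays tested for an array that stands apart, 1 had such an array, and chance gives about 1 in 20. For Napb 1427470_s_at, null replicate 3 read 10.77, and its gap to the nearest of the other null arrays took 0.942 of the range of the group. The nearest of the others read 11.37. The same array was also the lowest null array for Napb 1452444_at, at 9.85, and for Napb 1450888_at, at 10.89. Without null replicate 3 the difference of Napb 1427470_s_at was 0.15. Why the array stood apart was not tested.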

How the results depend on the processing

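The 5 probe sets of Vamp1, Vamp2, Stx1a and Napb called at an unadjusted p under 0.05 kept their direction in all 18 alternatives. The replicate numbers were not shown to pair the arrays: deviations of same-numbered arrays correlated at 0.46, 0.08, 0.05, 0.08 and 0.07 over all probe sets and at 0.54, 0.07, 0.10, 0.22 and 0.10 over bright ones, where replicate 2 alone was under 0.1, and 1 of 5 null and 1 of 5 wild type arrays correlated best with their own number. Fitting the number as a block gave the highest limma p of the alternatives for Vamp1 1421863_at (0.00162) and Vamp2 1420834_at (0.0446), 4 genes were still called, and 756 probe sets of the array were lower and 322 higher with the block, against 549 lower and 281 higher without it. After quantile normalization the count without overlap was 0, the related lists had 2 lower and 2 higher, and differences turned for Nsf 1422456_at (0.041), Napb 1452444_at (0.042) and Cplx1 minus Cplx2 (0.028). The cause was not tested. The related lists had 2 lower with dim probe sets left out and with the trend, 0 higher with the filter or the floor at 4, where Stx8 is dim, and 2 higher with array weights. Array weights turned Napb 1427470_s_at (-0.063), Napb 1450888_at (-0.017) and the shared probe set 1453647_at (0.0046).

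Leaving out 1 array at a time, the related lists ran from 0 to 9 lower and from 1 to 2 higher, and the within-gene count from 0 to 2. Ranges that crossed 0 were -0.36 to 0.084 for Vamp1 1421862_a_at, -0.40 to 0.096 for Vamp2 1420833_at, -0.019 to 0.085 for Cplx1 1448832_a_at, -0.030 to 0.092 for Cplx2 and -0.043 to 0.015 for Nsf 1422456_at. For Napb they were -0.022 to 0.15 (1427470_s_at), -0.039 to 0.12 (1450888_at) and -0.088 to 0.084 (1452444_at), and for Syp -0.12 to 0.013 (1448280_at) and -0.00039 to 0.061 (1456249_x_at). Vamp1 minus Vamp2 ran from -0.052 to 0.098, Cplx1 minus Cplx2 from -0.048 to 0.064, Napb 1423172_at minus 1423173_at from -0.062 to 0.019, and Vamp1 1421862_a_at minus 1421863_at from -0.018 to 0.42. Without null replicate 5, 13.6% of bright probe sets were lower at an unadjusted p under 0.05, against 5.3% with it. Low signal limits Cplx2 and the dimmer Syp probe set.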

Other observations

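Across single probe sets, with group means taken away, the 2 highest correlations over the 10 arrays were those of Napb 1427470_s_at with Napb 1452444_at (0.92) and of Vamp1 1421863_at with Stx1a 1448366_at (0.88). The Vamp1 and Stx1a probe sets were both lower in the null arrays. These probe sets share their arrays and their normalization, and the values are a description.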
